A study of Rattus norvegicus with 9 samples.

Results

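To compare the tumor necrosis factor (TNF) superfamily among adipose-derived mesenchymal stem cells (ASCs) of different fat deposits, the genes of its ligands and receptors were taken from RNA-Seq counts of SASCs, the ASCs of subcutaneous fat, PASCs, those of perirenal fat, and EASCs, those of epididymal fat. The members were all genes of the table whose symbol is Tnfsf or Tnfrsf followed by a number, together with Tnf, Lta, Ltb, Ltbr, Fas, Faslg, Cd40, Cd40lg, and Ngfr, which gave 39 of 35362 genes, namely 16 ligands and 23 receptors. SASCs, PASCs, and EASCs came from fat of the groin, kidney, and testis of male Sprague Dawley rats aged 6 weeks and were sequenced at passage 3 with 3 samples in each group, with no treatment or genetic change given in the labels. The methods describe 6 wells of a culture plate in each group, and whether the 3 samples were cultures of separate rats is not stated, so that the p-values measure only the spread between these samples, which may be technical.

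Ligands of the TNF superfamily are mostly trimeric membrane proteins that can be shed, and each binds one or a few receptors. Receptors with a death domain can recruit FADD and caspase-8 or, as TNFR1 does, TRADD and RIPK1, while the others recruit TRAF adaptors directly, and both routes can lead to NF-kB. Some members are decoys that bind a ligand without passing on a signal. In adipose tissue TNF is known as a product of macrophages that lowers the response of adipocytes to insulin and slows the formation of new ones.

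Libraries held 17591916 to 30299032 counts, and receptor genes of the family took 12424 to 23586 of them while ligand genes took 824 to 1229. Levels are given as CPM, the counts of a gene relative to the library total in the usual unit, after TMM scaling, where 3 counts correspond to 0.104 to 0.159 CPM, and levels of different genes were compared only as CPM per kilobase of the gene length in the table (FPKM). Genes were tested with edgeR's quasi-likelihood test and Benjamini-Hochberg adjustment over 14770 genes, the source of every adjusted p-value below, and differentially expressed genes (DEGs) had to pass an adjusted p of 0.05 and differ more than 2-fold. The mesenchymal markers Thy1, Nt5e, Eng, Cd44, Itgb1, and Pdgfra were present in every group at 60.0 CPM or more on average, although Pdgfra was downregulated in EASCs (-2.72) and PASCs (-2.47) and Eng (1.77) and Itgb1 were upregulated in EASCs. Genes of ribosomal RNA took 10.4% to 15.5% of the counts in SASCs and 15.9% to 40.3% in PASCs and EASCs. These sums and the library totals hold the counts of the precursor Rn45s and also those of Rn18s and Rn28s within it, which together came to 99.89% to 99.96% of the counts of Rn45s, so the shares of reads may be lower. With the ribosomal RNA genes removed before TMM scaling, the same 10, 8, and 2 members were called in the 3 comparisons below.

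Of the 39 members, 20 passed the filter on low counts and were tested, 19 of them with at least 1 CPM on average in a group. A total of 7 had no count in any of the 9 samples, which allows up to 3 counts per library, and these were Tnf itself, both lymphotoxin genes Lta and Ltb, the RANK ligand Tnfsf11, the CD40 ligand Cd40lg, Tnfrsf14, and the B cell receptor gene Tnfrsf13c. The 12 others, namely the ligands Tnfsf14, Faslg, Tnfsf10, Tnfsf4, and Tnfsf8 and the receptors Tnfrsf25, Tnfrsf11a, Tnfrsf19, Tnfrsf13b, Tnfrsf17, Tnfrsf18, and Tnfrsf4, had counts of at most 13 in a sample. Among them Tnfrsf19, which encodes the receptor TROY, had 3, 11, and 5 counts in the 3 samples of SASCs, 2, 0, and 0 in PASCs, and 0 in each sample of EASCs. Summed over the samples of a group, these 19 counts of SASCs were 9.36 times the level in PASCs (95% exact counting interval 2.26 to 82.9) and at least 6.17-fold higher than in EASCs when 3 counts are allowed for the group. The row of Tnfrsf11a carries the gene ID and description of its neighbour Zcchc2, which also has a row of its own, and its 0 to 8 counts per sample are therefore uncertain.

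Against SASCs, 10 members were DEGs in EASCs, 4 upregulated and 6 downregulated. Over all genes tested 27.8% were DEGs in this comparison, 13.6% upregulated and 14.2% downregulated. In PASCs 8 members were DEGs, 3 upregulated and 5 downregulated, while 26.9% of all genes tested were, 12.0% upregulated and 14.9% downregulated. Between EASCs and PASCs edgeR called 2 members, both upregulated in EASCs, and 7.39% of all genes tested, 5.19% upregulated and 2.20% downregulated. A member that passed the filter only through the group where it was high had to differ, so these counts describe the members and do not set them apart from other genes. At any fold change, with an adjusted p-value under 0.05, 7 members rose and 10 fell in EASCs beside 35.5% and 34.3% of all genes, and 5 rose and 10 fell in PASCs beside 34.6% in each direction. EASCs against PASCs gave 4 that rose and 6 that fell, beside 16.1% and 14.5%. The median log2 fold change of the 20 members was -0.31 in EASCs and -0.16 in PASCs, and 0.01 and -0.01 over all genes tested. Both comparisons use the same 3 samples of SASCs, so their values are given side by side and are not independent. In cultures sequenced in bulk, fewer cells of a type and less RNA per cell cannot be told apart.

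**Figure D1:**
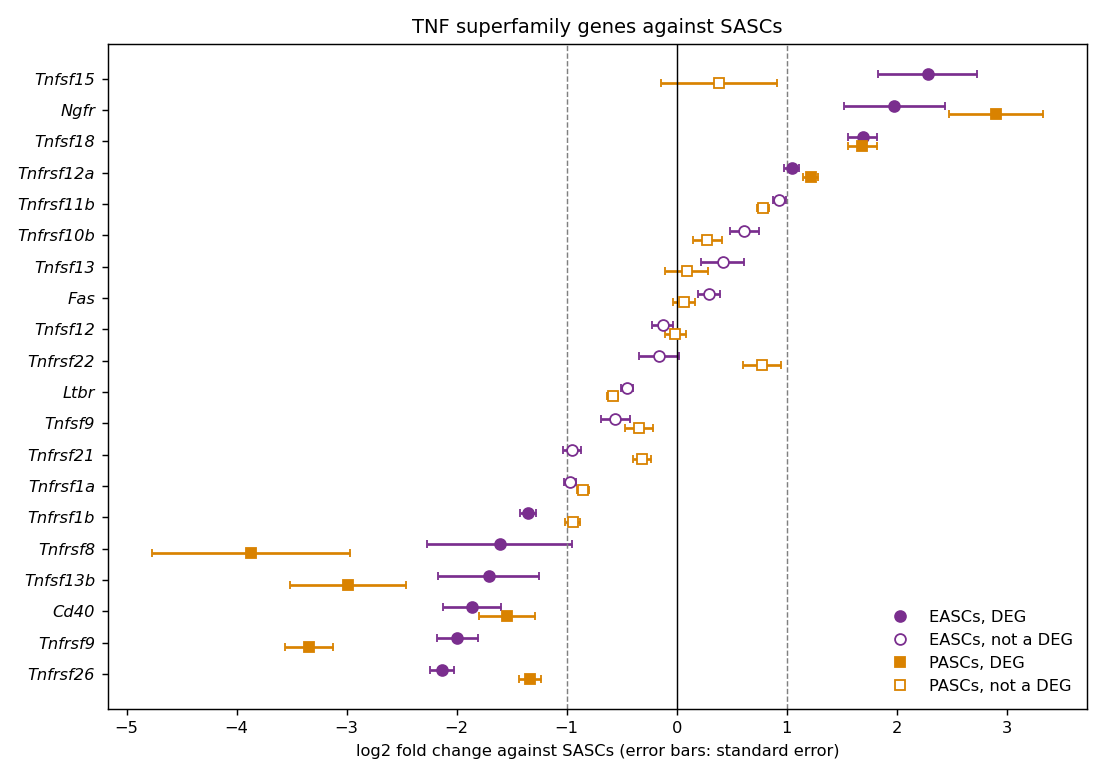
Log2 fold change (x axis) of each of the 20 tested members (y axis) in EASCs (circles) and PASCs (squares) against SASCs, with standard errors from the fit to 3 samples in each group. Filled symbols are DEGs and dashed lines mark a fold change of 2. Tnfsf15 lies at 2.28 in EASCs and 0.38 in PASCs, and Tnfrsf9 at -1.99 and -3.34.

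The receptors of TNF were the first receptors compared. Tnfrsf1a (chr4:157864916-157877634), which encodes TNFR1 with its death domain, measured 339, 327, and 314 CPM in SASCs, 189, 176, and 180 CPM in PASCs, and 166, 159, and 174 CPM in EASCs. Every sample of SASCs lay above every other sample. Its log2 fold change of -0.97 ± 0.055 (SE, adjusted p = 6.29e-15) in EASCs and -0.85 ± 0.055 (adjusted p = 1.28e-13) in PASCs stayed just inside the 2-fold limit, so it fell without being a DEG. Tnfrsf1b (chr5:163136390-163167299), which encodes TNFR2, the TNF receptor without a death domain, measured 56.8, 55.8, and 57.2 CPM in SASCs, 29.5, 29.2, and 29.5 CPM in PASCs, and 22.5, 20.2, and 24.0 CPM in EASCs. The 3 groups did not overlap, and the order was SASCs, PASCs, EASCs. Tnfrsf1b was downregulated with a log2 fold change of -1.35 ± 0.072 (SE, adjusted p = 1.93e-15) in EASCs, while its -0.95 ± 0.070 in PASCs missed the 2-fold limit. Between EASCs and PASCs the log2 fold change was -0.40 ± 0.074 (adjusted p = 0.000107).

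Per length, Tnfrsf1b stood at 0.141 ± 0.00612 (SD, n = 3) of Tnfrsf1a in SASCs, 0.132 ± 0.00437 in PASCs, and 0.109 ± 0.00465 in EASCs. The range in EASCs, 0.103 to 0.112, did not overlap those of the other two groups. Ltbr, which encodes the lymphotoxin beta receptor and signals through TRAF adaptors, measured 204 ± 5.35 CPM (SD, n = 3) in SASCs, 136 ± 6.68 in PASCs, and 149 ± 3.60 in EASCs, with log2 fold changes of -0.45 ± 0.053 (SE, adjusted p = 2.18e-08) in EASCs and -0.58 ± 0.053 (adjusted p = 1.82e-10) in PASCs. Ltbr and Tnfrsf1a both lie within the long span of Prr21 in the table, which had no count in any sample. The ligands of these 3 receptors, Tnf, Lta, Ltb, and Tnfsf14, were at 0 in every sample except for 2 counts of Tnfsf14 in 1 sample of EASCs.

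The promoters of 28 members were matched by gene ID and symbol in RefSeq on the assembly GRCr8, which is not the build of the counts, and the 250 bases before each start were searched on both strands. The AP-1 motif was searched as TGANTCA, the GC box as GGGCGG, the CCAAT box by the letters of its name, the TATA box as TATAAA, the motif of the TEAD factors as GGAATG, and the kappaB motif as its usual degenerate form, and 20 of the 28 held at least one match. GGGCGG was found in 15 of the 28 and in 30.5% of all 33469 promoters of the same length, TATAAA in 8 and in 12.9%, CCAAT in 5 and in 34.0%, GGAATG in 5 and in 12.1%, the kappaB motif in 5 and in 6.33%, and TGANTCA in 3 and in 6.34%. Matches to different motifs may share bases. A match is a description and not a binding site. The promoter of Tnfrsf1b (chr5:162387412-162387661, minus strand) and that of Tnfrsf9 (chr5:166664244-166664493, plus strand) are shown as those of receptor genes that fell, and the promoters of Tnfrsf12a (chr10:13213649-13213898, minus strand) and Tnfsf18 (chr13:76366603-76366852, plus strand) as those of genes that rose in both comparisons. Each is written 5′ to 3′ up to the base before the start, and capitals mark matches on either strand.
Tnfrsf1b: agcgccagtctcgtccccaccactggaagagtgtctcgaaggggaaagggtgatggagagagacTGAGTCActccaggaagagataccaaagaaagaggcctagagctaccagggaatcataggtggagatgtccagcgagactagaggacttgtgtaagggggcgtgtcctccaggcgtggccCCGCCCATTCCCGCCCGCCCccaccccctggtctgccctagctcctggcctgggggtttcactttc
Tnfrsf9: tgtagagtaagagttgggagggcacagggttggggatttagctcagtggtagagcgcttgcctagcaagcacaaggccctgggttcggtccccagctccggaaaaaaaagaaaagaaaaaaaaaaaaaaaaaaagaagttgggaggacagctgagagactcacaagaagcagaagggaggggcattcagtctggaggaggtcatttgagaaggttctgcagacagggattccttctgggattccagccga
Tnfrsf12a: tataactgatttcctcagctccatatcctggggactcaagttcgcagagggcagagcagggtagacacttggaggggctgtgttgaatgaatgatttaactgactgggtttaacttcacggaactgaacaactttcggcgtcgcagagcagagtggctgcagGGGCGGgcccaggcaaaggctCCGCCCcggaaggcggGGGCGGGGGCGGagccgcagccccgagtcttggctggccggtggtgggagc
Tnfsf18: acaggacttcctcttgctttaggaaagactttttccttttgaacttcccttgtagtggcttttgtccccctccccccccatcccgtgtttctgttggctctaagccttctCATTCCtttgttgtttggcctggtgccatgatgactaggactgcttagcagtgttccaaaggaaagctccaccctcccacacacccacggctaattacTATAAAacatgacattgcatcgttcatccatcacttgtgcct

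The window of Tnfrsf12a held GGGCGG 3 times on its own strand and 1 time on the other. The window of Tnfrsf1b held TGANTCA 186 to 180 bases before the start and, within 66 bases of the start, 3 copies of GGGCGG on the other strand, at 66 to 61, 56 to 51, and 52 to 47, with GGAATG among them. In Tnfsf18 the letters TATAAA ended 37 bases before the start and GGAATG lay on the other strand 140 to 135 bases before it. None of the 6 motifs was found in the window of Tnfrsf9, which says only that these letters are not in it.

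Tnfrsf12a encodes Fn14, the small receptor of the cytokine TWEAK, which is known to be induced in injured and growing tissue. At chr10:12995904-12997930, it measured 55.0, 62.1, and 56.8 CPM in SASCs, 146, 136, and 122 CPM in PASCs, and 122, 124, and 112 CPM in EASCs. All samples of SASCs lay below those of the other groups. It was upregulated by 1.04 ± 0.067 (log2, SE, adjusted p = 1.19e-13) in EASCs and by 1.22 ± 0.067 (adjusted p = 4.07e-15) in PASCs. With total counts in place of TMM scaling, which shifted the median of all genes to -0.39 and -0.33, the values were 0.66 and 0.89 and missed the 2-fold limit. Tnfsf12, which encodes TWEAK, measured 20.3 ± 0.771 CPM (SD, n = 3) in SASCs, 20.3 ± 3.09 in PASCs, and 18.6 ± 0.189 in EASCs, with adjusted p-values of 0.240 in EASCs and 0.911 in PASCs. Per length, Tnfrsf12a stood at 5.28 ± 0.546 times Tnfsf12 in SASCs, 12.6 ± 2.80 in PASCs, and 11.9 ± 0.538 in EASCs.

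Tnfrsf11b encodes osteoprotegerin, a secreted decoy that binds RANKL and TRAIL. It measured 63.3, 66.0, and 62.4 CPM in SASCs, 110, 106, and 114 CPM in PASCs, and 125, 125, and 115 CPM in EASCs, so that SASCs were lower in every sample. The log2 fold change was 0.93 ± 0.057 (SE, adjusted p = 4.61e-14) in EASCs and 0.78 ± 0.058 (adjusted p = 2.13e-12) in PASCs, below the 2-fold limit in both. RANKL itself, Tnfsf11, had no count in any sample, and TRAIL, Tnfsf10, had 2 counts in 1 sample of SASCs and 0 in the 8 others.

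In the order of levels per length, Tnfrsf1a stood first in SASCs at 139 FPKM, followed by Ltbr at 95.7, Tnfrsf12a at 60.2, Tnfrsf11b at 22.9, and Tnfrsf1b at 19.6. In PASCs the first place went to Tnfrsf12a at 140 FPKM, before Tnfrsf1a at 77.1, Ltbr at 63.9, Tnfrsf11b at 39.5, and Tnfrsf1b at 10.2. The same order was found in EASCs with 124, 70.7, 70.0, 43.8, and 7.69 FPKM, where the means of Tnfrsf1a and Ltbr differed by less than their spread. The summed level of all receptors was 375 ± 9.56 FPKM (SD, n = 3) in SASCs, 362 ± 17.2 in PASCs, and 343 ± 3.19 in EASCs. Among the ligands Tnfsf12 was first in every group, at 11.4, 11.4, and 10.5 FPKM in SASCs, PASCs, and EASCs, followed by Tnfsf9 in SASCs at 6.88 FPKM and by Tnfsf18 in PASCs at 5.79 and in EASCs at 5.83. In PASCs Tnfsf9 stood at 5.40 ± 0.340 FPKM and Tnfsf18 at 5.79 ± 0.448 (SD, n = 3). Ligands took 4.59% ± 0.204 (SD, n = 3) of the counts of the family in SASCs, 6.51% ± 0.437 in PASCs, and 6.69% ± 0.0501 in EASCs. This share of counts is not scaled by gene length. Per length, the summed level of all ligands was 22.5 ± 0.452 FPKM (SD, n = 3) in SASCs, 24.7 ± 1.29 in PASCs, and 25.0 ± 0.181 in EASCs.

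**Figure D2:**
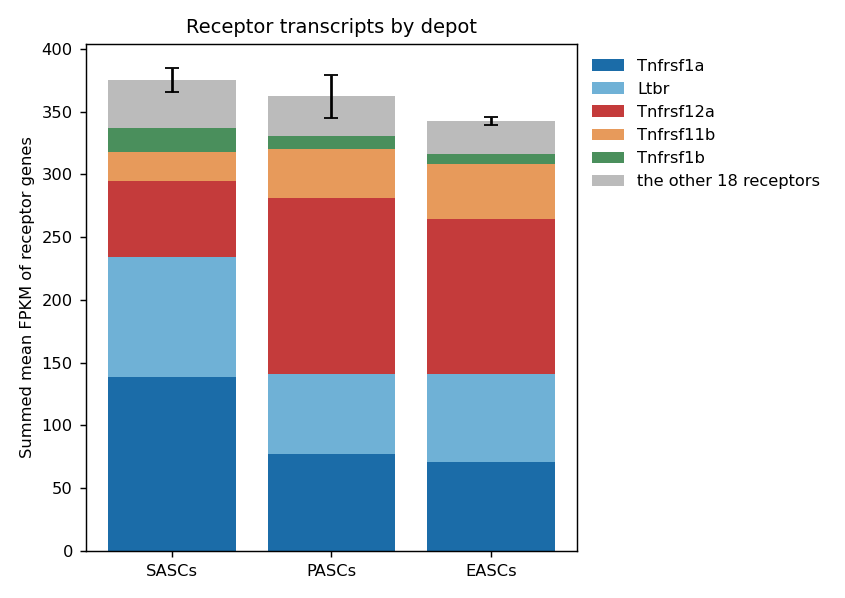
Summed mean FPKM of the 23 receptor genes (y axis, from 0) in each group (x axis), split into the 5 most abundant receptors and the remaining 18. Error bars are the SD of the sum over 3 samples. The part of Tnfrsf12a is 60.2 FPKM in SASCs, 140 in PASCs, and 124 in EASCs, and that of Tnfrsf1a is 139, 77.1, and 70.7.

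Among the receptors with a death domain, Fas and the TRAIL receptor gene Tnfrsf10b stayed within the 2-fold limit. Fas measured 12.8 ± 1.00 CPM (SD, n = 3) in SASCs, 13.5 ± 0.678 in PASCs, and 15.7 ± 0.805 in EASCs, and rose by 0.29 ± 0.099 (log2, SE, adjusted p = 0.0121) in EASCs, where it stood at -0.11 (adjusted p = 0.625) with total counts in place of TMM. Tnfrsf10b rose by 0.61 ± 0.13 in EASCs (adjusted p = 0.000175), from 9.24 ± 0.901 CPM to 14.2 ± 1.85, and stood at 11.3 ± 2.29 in PASCs (adjusted p = 0.0668). Tnfrsf21, which encodes death receptor 6, measured 40.0 ± 2.27 CPM in SASCs, 32.3 ± 3.55 in PASCs, and 20.7 ± 1.53 in EASCs. Its log2 fold change was -0.95 ± 0.085 in EASCs (adjusted p = 1.08e-10), -0.31 ± 0.082 in PASCs (adjusted p = 0.00145), and -0.64 ± 0.086 between EASCs and PASCs (adjusted p = 1.03e-06), with EASCs lowest in every sample. Faslg, the Fas ligand gene, had at most 2 counts in a sample.

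Tnfrsf26 and Tnfrsf22 are neighbouring genes of one cluster, at chr1:216808642-216829366 and chr1:216845789-216859606, and the mouse counterpart of Tnfrsf22 is known as a decoy receptor of TRAIL. Tnfrsf26 measured 25.6, 27.8, and 24.8 CPM in SASCs, 11.4, 9.65, and 9.90 CPM in PASCs, and 5.36, 6.20, and 6.26 CPM in EASCs. The groups did not overlap. It was downregulated with a log2 fold change of -2.13 ± 0.11 (SE, adjusted p = 6.76e-16) in EASCs and of -1.33 ± 0.10 (adjusted p = 4.63e-12) in PASCs, and EASCs against PASCs gave -0.80 ± 0.12 (adjusted p = 3.74e-06). Tnfrsf22 measured 3.23, 3.48, and 4.10 CPM in SASCs, 6.77, 5.46, and 6.14 CPM in PASCs, and 3.64, 3.04, and 2.91 CPM in EASCs. Its highest values were thus in PASCs, at 0.77 ± 0.17 (log2, SE, adjusted p = 0.000276) against SASCs and -0.94 ± 0.17 between EASCs and PASCs (adjusted p = 0.000117), both below the 2-fold limit. How reads shared by the paralogs were counted is not given in the sources used here, and both genes lie within the span of Cttn in the table, which had 1 count.

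Ngfr (chr10:83389835-83408061), which encodes the p75 receptor of neurotrophins and is also used as a marker of some mesenchymal progenitors, was low in all groups. It measured 0.313, 0.170, and 0.195 CPM in SASCs, 1.68, 1.76, and 1.85 CPM in PASCs, and 0.754, 1.22, and 0.805 CPM in EASCs. PASCs were highest in every sample and SASCs lowest. Ngfr was upregulated by 1.98 ± 0.46 (log2, SE, adjusted p = 0.000405) in EASCs and by 2.90 ± 0.43 (adjusted p = 1.13e-06) in PASCs, and between EASCs and PASCs the log2 fold change was -0.92 ± 0.35 (adjusted p = 0.0473). It is a gene that Schwann cells also express, and of the 7 markers of these cells 4 were tested, of which 0 were upregulated and 2 downregulated in EASCs and 0 and 1 in PASCs. Foxd3 had no count, Sox10 averaged 0.0399 CPM in SASCs, 0.0982 in PASCs, and 0.0577 in EASCs, Mbp averaged 0.840, 1.06, and 1.37 CPM, and S100b averaged 29.8, 6.94, and 1.48 CPM. The summed level of the 7 markers was 31.7 to 35.1 CPM for SASCs, 9.11 to 10.1 for PASCs, and 3.77 to 4.06 for EASCs, most of it S100b in SASCs and PASCs.

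Cd40 and Tnfrsf9 belong to the receptors best known from immune cells. Cd40 (chr3:161519788-161534943), the receptor through which T cells activate B cells and macrophages, measured 3.55, 3.91, and 3.51 CPM in SASCs, 1.34, 1.23, and 1.17 CPM in PASCs, and 1.13, 0.689, and 1.21 CPM in EASCs. SASCs were higher in every sample, and the other 2 groups overlapped. The log2 fold change was -1.86 ± 0.26 (SE, adjusted p = 5.41e-07) in EASCs and -1.54 ± 0.25 (adjusted p = 5.82e-06) in PASCs. Tnfrsf9 (chr5:168009041-168035813), which encodes the costimulatory receptor 4-1BB, measured 8.86, 10.7, and 8.15 CPM in SASCs, 0.803, 1.01, and 0.900 CPM in PASCs, and 2.51, 2.76, and 1.66 CPM in EASCs. The 3 groups did not overlap, and the order was SASCs, EASCs, PASCs, unlike that of Tnfrsf26 and Tnfrsf1b. Tnfrsf9 was downregulated with a log2 fold change of -1.99 ± 0.19 (SE, adjusted p = 4.32e-10) in EASCs and of -3.34 ± 0.22 (adjusted p = 1.79e-13) in PASCs, and EASCs against PASCs gave 1.35 ± 0.25 (adjusted p = 0.000117).

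Tnfrsf8, which encodes CD30, was tested on few counts. SASCs had 12, 13, and 10, PASCs had 0, 0, and 2, and EASCs had 6, 3, and 2. It was called downregulated in both comparisons, and relative to the scaled library sizes the total in SASCs was 17.3 times that in PASCs (95% exact counting interval 4.43 to 148). The call in EASCs, at -1.61 ± 0.66 (log2, SE, adjusted p = 0.0323), was lost with DESeq2, without the filter on low counts, and without any one sample of SASCs.

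Among the ligands, Tnfsf18 rose and Tnfsf13b fell in both comparisons, and Tnfsf15 rose in EASCs. Tnfsf18 (chr13:79378412-79388687) encodes the GITR ligand, a costimulatory protein known from endothelial and antigen-presenting cells. It measured 3.68, 5.52, and 4.98 CPM in SASCs, 15.6, 15.7, and 13.7 CPM in PASCs, and 16.5, 14.3, and 14.4 CPM in EASCs, so that SASCs were lowest in every sample and the other 2 groups overlapped. It was upregulated by 1.69 ± 0.13 (log2, SE, adjusted p = 7.59e-12) in EASCs and by 1.68 ± 0.13 (adjusted p = 8.30e-12) in PASCs. Its receptor gene, Tnfrsf18, had 2, 0, and 4 counts in SASCs and 0 in the 6 other samples. The gene LOC103692000, which overlaps Tnfsf18 on the other strand, had 2 counts in all.

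Tnfsf15 (chr5:79553935-79569974) encodes TL1A, a ligand known from endothelial cells. It measured 0.417, 0.170, and 0.342 CPM in SASCs, 0.459, 0.224, and 0.583 CPM in PASCs, and 1.30, 1.95, and 1.39 CPM in EASCs. Every sample of EASCs lay above the 6 others, and SASCs and PASCs overlapped. The log2 fold change was 2.28 ± 0.45 (SE) in EASCs against SASCs (adjusted p = 6.78e-05) and 1.90 ± 0.43 against PASCs (adjusted p = 0.00117), while it was 0.38 ± 0.53 in PASCs against SASCs (adjusted p = 0.533). Its receptor gene, Tnfrsf25, had 0 to 11 counts per sample. Tnfsf13b (chr16:85275690-85306412), which encodes the B cell survival factor BAFF, measured 0.904, 1.40, and 1.51 CPM in SASCs, 0.153, 0.112, and 0.212 CPM in PASCs, and 0.586, 0.203, and 0.358 CPM in EASCs. SASCs were highest in every sample and the other 2 groups overlapped. It was downregulated with a log2 fold change of -1.71 ± 0.46 (SE, adjusted p = 0.00167) in EASCs and of -2.99 ± 0.53 (adjusted p = 1.64e-05) in PASCs. The 3 receptors of BAFF were not measurable, with no count of Tnfrsf13c, 6 counts of Tnfrsf13b in 1 sample of EASCs, and at most 3 of Tnfrsf17.

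Tnfsf9, which encodes the ligand of 4-1BB, measured 9.02 ± 0.351 CPM (SD, n = 3) in SASCs, 7.08 ± 0.445 in PASCs, and 6.13 ± 0.699 in EASCs. It fell by less than the 2-fold limit, with log2 fold changes of -0.56 ± 0.13 (SE, adjusted p = 0.000471) in EASCs and -0.34 ± 0.13 (adjusted p = 0.0199) in PASCs. Tnfsf13, which encodes APRIL, the relative of BAFF, measured 3.15 ± 0.456 CPM in SASCs, 3.35 ± 0.390 in PASCs, and 4.18 ± 0.535 in EASCs, with adjusted p-values of 0.0562 in EASCs and 0.697 in PASCs. Tnfsf13 and Tnfsf12 lie next to each other on chromosome 10.

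**Figure D3:**
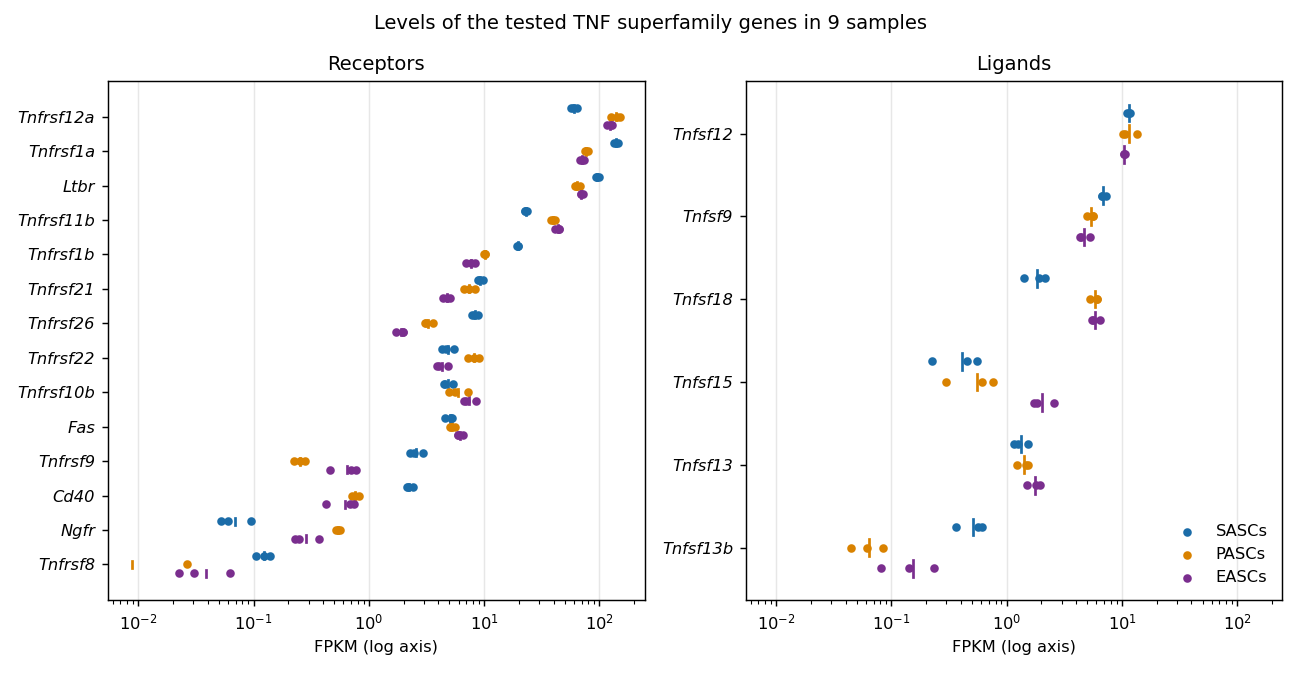
FPKM (x axis, log scale) of the 20 tested members (y axis) in each of the 9 samples, with receptors on the left and ligands on the right. Points are samples, short lines are group means, and the 2 samples of PASCs in which Tnfrsf8 was at 0 are not drawn. The levels run from Tnfrsf12a and Tnfrsf1a, up to 140 and 139 FPKM on average, to Tnfrsf8 at 0.122, 0.00886, and 0.0387 FPKM in SASCs, PASCs, and EASCs.

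Markers of other cell types moved between the same groups. Of 12 leukocyte and macrophage markers, 11 were upregulated in EASCs and 7 in PASCs, and their summed level was 59.9 to 65.0 CPM for SASCs, 142 to 148 for PASCs, and 222 to 232 for EASCs, with none at 0. Tnfrsf9, Cd40, Tnfsf13b, and Tnfrsf1b, which are expressed in leukocytes too, were lower than in SASCs in both groups. Tnfsf18, known from endothelial and antigen-presenting cells, was higher (1.69 in EASCs, 1.68 in PASCs). In EASCs against PASCs 9 of the 12 markers rose at any fold change and 1 fell. There Tnfrsf9 rose (1.35) and Tnfsf13b stood at 1.28 (adjusted p = 0.124). Tnfrsf1b fell (-0.40, adjusted p = 0.000107), while Cd40 stood at -0.31 (adjusted p = 0.461) and Tnfsf18 at 0.0062 (adjusted p = 0.977). The lymphocyte markers Cd3e, Cd3d, Cd79b, and Ms4a1 were at 0 in all 9 samples, and 1 of the 9 markers of the list, Cd4, was tested and was upregulated in EASCs. Of 6 endothelial markers, 5 were downregulated and 1, Tek (1.71), was upregulated in PASCs against SASCs. In EASCs against SASCs 1 was downregulated and Tek (1.66) was upregulated, and 5 were upregulated in EASCs against PASCs. Tnfsf15 and Tnfrsf9 rose in EASCs against PASCs, while in EASCs against SASCs Tnfsf15 rose (2.28) and Tnfrsf9 fell (-1.99). The summed level of the endothelial markers was 52.3 to 54.4 CPM for SASCs, 13.7 to 16.7 for PASCs, and 36.6 to 39.7 for EASCs, with none at 0. Of 6 smooth muscle and pericyte markers, 5 rose and 1 fell in both comparisons, with a summed level of 160 to 172 CPM for SASCs, 2829 to 3126 for PASCs, and 6317 to 6685 for EASCs. Of 8 mesothelial markers 7 were tested, of which 6 were upregulated in EASCs and 7 in PASCs, with a summed level of 20.0 to 21.4, 98.3 to 106, and 132 to 143 CPM in SASCs, PASCs, and EASCs, and Krt18 was at 0 in SASCs. The 3 tested adipocyte markers of 4 fell in both comparisons, with 55.3 to 60.7, 13.5 to 14.4, and 5.64 to 6.20 CPM in all. The part of these cell types in the results was not tested.

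The genes that act with the receptors were taken as lists, whose counts are read beside the shares over all genes tested. Against SASCs, 13.6% of all genes tested were upregulated and 14.2% downregulated in EASCs, and 12.0% and 14.9% in PASCs. At any fold change 35.5% rose and 34.3% fell in EASCs, and 34.6% did in each direction in PASCs. The median log2 fold changes of all genes tested were 0.01 and -0.01. Among 4 tested genes of the superfamily outside the naming rule, Edar, the receptor of ectodysplasin that guides the formation of hair and other skin appendages, measured 12.1 ± 0.382 CPM (SD, n = 3) in SASCs, 0.347 ± 0.187 in PASCs, and 0.307 ± 0.121 in EASCs. It was downregulated with a log2 fold change of -5.26 ± 0.26 (SE, adjusted p = 2.22e-16) in EASCs and of -5.05 ± 0.25 (adjusted p = 3.20e-16) in PASCs. Relt, a receptor gene of the family, measured 1.53 ± 0.365 CPM in SASCs, 5.83 ± 0.152 in PASCs, and 5.98 ± 0.912 in EASCs and was upregulated, with log2 fold changes of 1.94 in EASCs and 1.91 in PASCs. Eda and Eda2r were tested without being DEGs, and Cd27 and Cd70 were not tested.

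Of 31 adaptors, kinases, and ubiquitin ligases in the table, 1 was upregulated and 3 were downregulated in EASCs, and 1 and 2 in PASCs, with median log2 fold changes of -0.18 and -0.16. Ripk3, the kinase of necroptosis, measured 23.9 ± 1.80 CPM in SASCs, 94.3 ± 2.20 in PASCs, and 50.2 ± 2.28 in EASCs, and its log2 fold change was 1.06 ± 0.068 in EASCs and 1.97 ± 0.067 in PASCs. Its value in EASCs was 0.67 with total counts in place of TMM. Mlkl, the protein that Ripk3 phosphorylates in necroptosis, moved the other way, with 31.2 ± 0.402 CPM in SASCs, 11.5 ± 0.493 in PASCs, and 12.1 ± 1.12 in EASCs (log2 fold change -1.37 in EASCs and -1.45 in PASCs). Traf1, an adaptor of TNFR2, CD40, and 4-1BB, was downregulated, with a log2 fold change of -1.38 in EASCs, and lay just past the 2-fold limit in PASCs. There it missed the limit with 4 alternatives of scaling, filter, or samples fitted, upper-quartile factors (-0.99) among them, and without the first sample of SASCs (-0.92), the first (-0.94) or the third (-0.96) of PASCs, or the first or second of EASCs. The ubiquitin ligase gene Birc3 was downregulated in EASCs (-1.27) and stood at -0.82 in PASCs.

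Of 9 genes of NF-kB subunits and inhibitors, 0 were upregulated in either comparison, and 1 was downregulated in EASCs and 2 in PASCs by edgeR. At any fold change with an adjusted p-value under 0.05, 0 rose and 4 fell in EASCs and 1 rose and 3 fell in PASCs. Bcl3 measured 29.4 ± 1.25 CPM in SASCs, 12.8 ± 1.27 in PASCs, and 14.2 ± 1.08 in EASCs. Nfkbia, the inhibitor that NF-kB itself induces, measured 11.6 ± 0.621, 5.78 ± 0.705, and 6.24 ± 0.266 CPM, with log2 fold changes of -0.89 in EASCs and -1.01 in PASCs. The call of Nfkbia in PASCs was lost without the first sample of PASCs (-0.90) or of SASCs (-0.96) and with upper-quartile factors (-0.998).

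Among 22 genes known as targets of TNF and NF-kB, 18 were tested, of which 1 was upregulated and 6 were downregulated in EASCs, and 0 and 8 in PASCs, with median log2 fold changes of -0.77 and -0.89. Over all genes tested, 13.6% were upregulated and 14.2% downregulated in EASCs, and 12.0% and 14.9% in PASCs, with medians of 0.01 and -0.01. Birc3 and Tnfaip3 are also in the list of adaptors and Nfkbia in that of NF-kB, so their calls are counted in both. At any fold change 5 rose and 9 fell in EASCs, beside 35.5% and 34.3% of all genes. In PASCs 2 rose and 14 fell, beside 34.6% in each direction. The cytokine gene Il6 measured 37.8 ± 3.08 CPM in SASCs, 9.53 ± 0.988 in PASCs, and 9.96 ± 0.523 in EASCs, and was downregulated with a log2 fold change of -1.93 ± 0.097 (SE, adjusted p = 5.38e-16) in EASCs and of -1.99 ± 0.098 (adjusted p = 3.11e-16) in PASCs. The neutrophil chemokine gene Cxcl1 measured 25.4 ± 1.95, 4.70 ± 0.534, and 6.81 ± 0.235 CPM in SASCs, PASCs, and EASCs, and Ccl20 measured 3.96 ± 0.697, 1.35 ± 0.223, and 1.47 ± 0.381 CPM. Vcam1, which binds leukocytes, was downregulated in PASCs (-1.94) and upregulated in EASCs against PASCs (1.29). Lif, a cytokine of the interleukin-6 family, was upregulated in EASCs by 1.48 ± 0.15. Cxcl10 was downregulated in PASCs at -1.67 ± 0.57 (adjusted p = 0.0113), a call lost without the first sample of SASCs (-1.49) or the third of PASCs (-1.33). In EASCs Cxcl10 stood at -1.14 ± 0.54 (adjusted p = 0.0614), and 7 alternatives called it downregulated there, at -1.14 to -1.82.

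**Figure D4:**
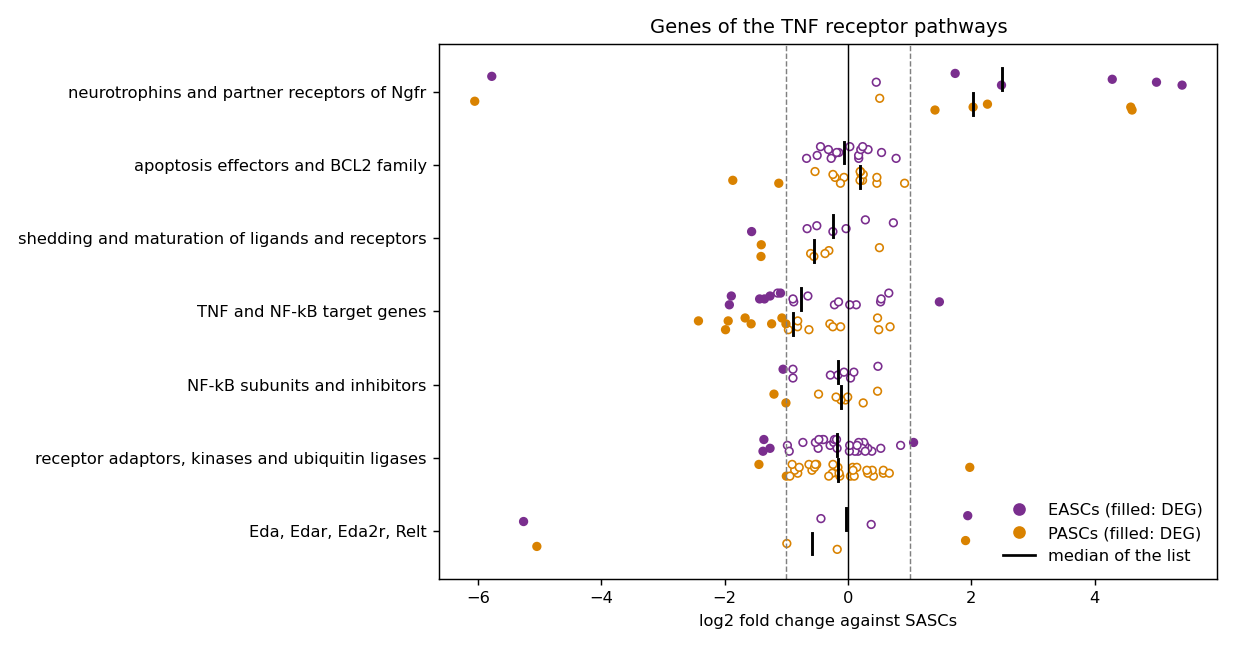
Log2 fold change against SASCs (x axis) of the tested genes of 7 lists (y axis) in EASCs (purple) and PASCs (orange). Each point is a gene, filled points are DEGs, black lines are list medians, and dashed lines mark a fold change of 2. The medians of the TNF and NF-kB target genes lie at -0.77 and -0.89, and Ntrk2 at -5.78 and -6.06.

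Of 7 genes that shed or mature ligands and receptors, 0 rose as DEGs against SASCs in either comparison, 1 was downregulated in EASCs, and 2 were in PASCs by edgeR, while at any fold change with an adjusted p-value under 0.05 2 rose and 4 fell in EASCs and 1 rose and 6 fell in PASCs. Adam17, the sheddase of TNF and of both its receptors, measured 146 ± 1.16 CPM in SASCs, 54.8 ± 3.28 in PASCs, and 49.3 ± 2.78 in EASCs, a log2 fold change of -1.56 ± 0.060 (adjusted p = 1.15e-18) in EASCs and -1.41 ± 0.060 (adjusted p = 1.04e-17) in PASCs. Timp3, an inhibitor of Adam17, was downregulated in PASCs (-1.41) and stood at 0.28 in EASCs. Of 16 apoptosis effectors and genes of the BCL2 family, 0 were DEGs in EASCs by edgeR, while 5 rose and 5 fell at any fold change. In PASCs 2 were downregulated, Bcl2 (-1.87) among them, and 0 were upregulated, with 6 rising and 5 falling at any fold change.

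Of 10 neurotrophins and partner receptors of Ngfr, 7 were tested, and 5 were upregulated and 1 downregulated in both comparisons. Ntf4, which encodes a neurotrophin, rose to 2.50 ± 0.225 CPM in EASCs from 0.122 ± 0.0831 in SASCs. Lingo1 and Rtn4r, which form a complex with the p75 receptor in neurons, were near 0 in SASCs, at 0.0325 and 0.0767 CPM, and measured 0.785 and 1.80 CPM in PASCs and 1.40 and 2.39 CPM in EASCs. Bdnf, another neurotrophin gene, rose in PASCs by 2.03 ± 0.41 (adjusted p = 9.13e-05) and stood at 0.46 in EASCs. Ntrk2, the receptor of the neurotrophins BDNF and NT-4, measured 77.8 ± 4.22 CPM in SASCs, 1.09 ± 0.631 in PASCs, and 1.41 ± 0.362 in EASCs, and its log2 fold changes were -6.06 ± 0.16 (SE) for PASCs and -5.78 ± 0.16 for EASCs. The order of the groups in Ngfr, highest in PASCs, was shared by Bdnf and not by Ntf4, which was highest in EASCs.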

How the data were processed

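Counts of 9 samples were analysed, assigned to 3 groups by their labels. Per the methods, the authors trimmed paired reads with cutadapt and FastX-Toolkit and aligned them with TopHat to the rat genome rn6. The submitters' processing notes name TopHat2 and rn5 instead, so the build of the printed gene positions is uncertain. The deposited values are whole-number read counts of 35362 genes, not normalized, and the counter and its use of strand are not given in the sources used here. The deposited table also holds gene lengths, which served for FPKM.

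With edgeR 4.0.16 in R 4.3.3, counts were scaled by TMM (factors 0.740 to 1.23) and filterByExpr kept 14770 genes for testing. All samples entered a single fit of the quasi-likelihood test, with a term for each of 3 groups and no block, with Benjamini-Hochberg adjustment in each comparison. On simulated data for EASCs against SASCs with 14770 genes, 200 of 200 genes changed by 2 on the log2 scale were recovered and 1 unchanged gene was called. The changed genes were drawn from those above 1 CPM on average, and the counts from the fitted model. The simulation therefore does not cover calls near the 2-fold limit or on few counts. Members and lists were chosen with earlier results of these data known. Named were all members, with values per sample for DEGs of at least 1 CPM, and at most 6 DEGs of each list. Of 32 adaptors, Traf5 has no row under that symbol. Replicates differed by more than counting noise (chi-square per degree of freedom 4.51 to 17.5). Intervals and floors of 3 counts cover counting error only. Alternatives were DESeq2 1.42.0, other scalings (upper-quartile factors, total counts), filters, and thresholds, only the groups compared, a block, and leaving out each sample. Removal of rRNA genes without TMM was added after seeing the data. Some genes of the lists are not reported here.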

Additional observations from a re-analysis of the deposited data

Results flagged for a closer look

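Beside the comparisons with SASCs, 2 members differed between EASCs and PASCs themselves as DEGs. Tnfsf15 was higher in EASCs with a log2 fold change of 1.90 (edgeR adjusted p = 0.00117), and its 3 samples lay above all 3 of PASCs. Tnfrsf9 was higher in EASCs with 1.35 (edgeR adjusted p = 0.000117), again without overlap, although it was lower than in SASCs in both. With 3 samples in each group, single samples were not screened as outliers.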

How the results depend on the processing

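The calls of members other than Tnfrsf8 and Tnfrsf12a were kept under every alternative. Tnfrsf8 lost its call in EASCs with DESeq2 (-1.67), without the filter, under the replicate block, and without SASCs sample 1 (-1.72), 2 (-1.51), or 3 (-1.60) or EASCs sample 2 (-1.46) or 3 (-1.35), and was not tested at a minimum of 1 CPM. Total counts without TMM also gave calls of Tnfrsf1a (-1.37 in EASCs, -1.17 in PASCs), Tnfrsf21 (-1.35 in EASCs), Tnfrsf1b (-1.27 in PASCs), and Tnfrsf22 (-1.01, EASCs against PASCs). With rRNA genes also removed, the median of all genes was -0.11 in EASCs, and Tnfrsf12a stood at 0.92 there. That setting likewise called Tnfrsf1a (-1.10) and Tnfrsf21 (-1.08) in EASCs and Tnfrsf1b (-1.01) in PASCs. In EASCs Tnfrsf1a passed the limit without SASCs or EASCs sample 3 and Tnfrsf21 without EASCs sample 3, each by less than 0.01. For EASCs against PASCs Tnfrsf22 passed it without PASCs sample 2 (-1.02) or EASCs sample 1 (-1.04), Ngfr without EASCs sample 2 (-1.17), and Tnfrsf8 without PASCs sample 3, where PASCs were at 0 and no fold is given. Tnfsf8, below the filter with all samples and not called when the filter was dropped, was called in EASCs without SASCs sample 3, PASCs sample 3, or EASCs sample 2, and Tnfrsf19 without the filter. Leaving out single samples gave 9 to 11, 8, and 2 to 3 members in the 3 comparisons, beside 4115 to 4338, 3957 to 4133, and 1022 to 1108 of all genes. Members past the adjusted p alone numbered 17, 15, and 10 for EASCs and PASCs against SASCs and EASCs against PASCs, and at 1.5-fold 14, 12, and 6. All genes past the adjusted p alone numbered 10298, 10227, and 4530, and at 1.5-fold 6414, 6405, and 1945. The cause was not tested beyond the looser limits.

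The replicate numbers are not stated to mark shared rats, and samples with one number deviated with correlations of -0.0252 to 0.0590, so the samples were treated as unpaired. With the replicate block 9, 8, and 2 members were called, beside 4061, 3944, and 1067 of all genes.

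Only values that were not DEGs turned direction, although Fas (edgeR adjusted p = 0.0121) and Timp3 (0.00752) in EASCs had passed the adjusted p alone. Without TMM, Fas stood at -0.11 in EASCs, and in PASCs Fas stood at -0.26, Tnfrsf10b at -0.032, and Tnfsf13 at -0.24. For EASCs against PASCs Tnfsf18 stood at -0.059 (-0.049 with rRNA genes removed), Relt at -0.032 (-0.020), and Il6 at -0.0068, and Timp3 in EASCs at -0.11. Leaving out single samples gave ranges of -0.14 to 0.064 for Tnfsf12 in PASCs, -0.031 to 0.77 for Bdnf in EASCs, and, for EASCs against PASCs, -0.19 to 0.0093 for Tnfsf12, -0.064 to 0.043 for Tnfsf18, -0.085 to 0.30 for Ccl20, -0.16 to 1.27 for Cxcl10, -0.49 to 0.34 for Edar, -0.014 to 0.15 for Il6, -0.044 to 0.57 for Ntrk2, and -0.050 to 0.16 for Relt.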

Other observations

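The C1qtnf genes, whose products share the fold of TNF in a C1q domain, were examined after their values were seen. Of the 8 present, 6 were tested, and 4 were downregulated in EASCs and 5 in PASCs, with 0 upregulated against SASCs by edgeR. The downregulated share of all genes tested was 14.2% for EASCs and 14.9% for PASCs, the upregulated share 13.6% and 12.0%. C1qtnf3 was called in both comparisons on few counts, at most 23 per sample, with adjusted p-values of 0.0120 (EASCs) and 0.0286 (PASCs). C1qtnf2 stood at 0.97 in EASCs and 0.65 in PASCs on the log2 scale. C1qtnf1, a secreted protein, measured 268 ± 9.52 CPM (SD, n = 3) in SASCs, 32.0 ± 3.31 in PASCs, and 56.1 ± 3.29 in EASCs. C1qtnf7 averaged 32.5 CPM in SASCs, 3.06 in PASCs, and 24.3 in EASCs, and 1 of the 6, C1qtnf7, was a DEG between EASCs and PASCs, upregulated in EASCs.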
